A study of Homo sapiens with 4 samples.

Results

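The genes described here encode the proteins of the cytosolic ribosome. The family was chosen with earlier results of these data known, and its rows were then taken by symbol. They were every row named RPL or RPS followed by a number and an optional suffix, together with RPLP0, RPLP1, RPLP2 and RPSA. Pseudogenes and the RPS6K kinases were left out. This gave 83 of the 19871 rows with a usable gene symbol. There were 46 core genes of the 60S subunit, 31 core genes of the 40S subunit and 6 paralog rows carrying an L (RPL3L, RPL7L1, RPL22L1, RPL26L1, RPL39L and RPS27L), which were kept apart. DU145 is an established human prostate carcinoma line that grows as an epithelial culture. RNA-seq was carried out on 2 libraries of DU145 cells carrying pLKO, the empty lentiviral hairpin vector, and on 2 libraries of DU145 cells with a short hairpin RNA against TAZ, a transcriptional co-activator of the Hippo pathway encoded by WWTR1. All cells were grown in DMEM with serum. The series names a pair of independent hairpins, but the labels do not say which hairpin each knockdown library carries, and they do not state that replicate libraries are separate cultures. A p-value here therefore sets the difference between groups against the spread of these particular libraries. That spread may be a technical quantity, and in the knockdown pair it may also hold a difference between hairpins.

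Values are the authors' normalized read counts, and libraries are listed in the order control 1, control 2, knockdown 1 and knockdown 2. The libraries held 11669804 to 14789849 reads assigned to genes. WWTR1 had normalized counts of 2508, 3626, 839 and 719, so that its level after knockdown was 25.4% of the control mean (log2 fold change -1.96 ± 0.20 SE, limma adjusted p = 0.0086). The row named TAZ is a different gene, tafazzin, and did not pass the test (log2 fold change -0.30, limma adjusted p = 0.849). The 5 epithelial markers were all detected. The keratins KRT8 (18490, 24940, 14620 and 8485 normalized counts) and KRT18 (9412, 13490, 8369 and 5318) were lower in both knockdown libraries than in both controls. KRT19 overlapped between groups, within 6162 to 9725, whereas EPCAM (520, 661, 709 and 1061) and CDH1 (820, 1329, 2296 and 1355) were higher in both knockdown libraries. Of the markers of other cells, PTPRC of leukocytes was at 0 in 3 libraries and at 0.886 in the other, while CD68, a lysosomal protein abundant in macrophages, was at 1251, 1310, 1196 and 1016. The fibroblast markers PDGFRB and COL3A1 lay between 0.928 and 9.28 and COL1A1 between 36.8 and 147, and the endothelial markers PECAM1, CDH5 and VWF lay between 0 and 13.8. The part of these markers in the results below was not tested. In bulk RNA, a lower count of a gene in some cells and a lower count in every cell cannot be told apart.

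A ribosome joins a small subunit, which binds the mRNA and reads its codons, to a large subunit, which forms the peptide bond and holds the exit tunnel. One copy of nearly every ribosomal protein goes into each particle, and surplus protein is degraded, so the genes are expressed in a coordinated way. Their mRNAs are classic TOP mRNAs, which begin at a C followed by an unbroken run of pyrimidines, and through LARP1 and mTOR signalling this tract links their translation and stability to growth conditions. The first bases of the mRNA are shown for a few members because this start is the sequence feature that the family shares. Each window runs 5′ to 3′ on the transcribed strand from 15 bases before to 15 bases after a RefSeq transcription start on GRCh38.p14, and capitals mark the pyrimidine tract where one begins at the start. The first group below holds core members whose counts are described further on, and the second holds paralog rows and the namesakes of some of them.
RPS12: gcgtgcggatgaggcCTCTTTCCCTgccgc
RPS18: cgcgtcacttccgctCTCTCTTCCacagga
RPLP0: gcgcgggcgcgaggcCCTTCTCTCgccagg
RPL18: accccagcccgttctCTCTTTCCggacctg
RPS6: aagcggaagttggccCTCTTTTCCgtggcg
RPL41: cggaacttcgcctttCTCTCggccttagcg
RPS27: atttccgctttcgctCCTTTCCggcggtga

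RPL22 and RPL26 begin with a tract, and so does the paralog RPL22L1, whereas the other 3 paralog windows shown hold no tract at the start.
RPL22: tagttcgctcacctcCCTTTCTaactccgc
RPL22L1: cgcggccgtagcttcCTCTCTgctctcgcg
RPL26: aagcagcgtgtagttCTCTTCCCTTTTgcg
RPL26L1: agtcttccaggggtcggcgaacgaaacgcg
RPL7L1: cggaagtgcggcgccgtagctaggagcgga
RPS27L: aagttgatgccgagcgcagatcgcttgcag

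These windows lie at chr6:132814554-132814583 (plus strand) for RPS12, chr6:33272060-33272089 (plus) for RPS18, chr12:120201097-120201126 (minus) for RPLP0, chr19:48619164-48619193 (minus) for RPL18 and chr9:19380222-19380251 (minus) for RPS6. RPL41 lies at chr12:56116618-56116647 (plus), RPS27 at chr1:153990747-153990776 (plus), RPL22 at chr1:6199581-6199610 (minus) and RPL22L1 at chr3:170870181-170870210 (minus). RPL26 lies at chr17:8383179-8383208 (minus), RPL26L1 at chr5:172958714-172958743 (plus), RPL7L1 at chr6:42879601-42879630 (plus) and RPS27L at chr15:63157463-63157492 (minus). Each window spans the annotated start of the first exon.

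A TOP start was searched for as a C at an annotated start followed by at least 4 bases that are each C or T, on the transcribed strand only and at no other position. Promoter windows were found for 66 of the 83 members, and a gene counted when any of its starts matched. Of the core genes with a window, 46 of 62 had such a start (74.2%), with 28 of 38 in the 60S set and 18 of 24 in the 40S set. The share was 5.14% over all 27305 genes with a window and 8.7% for the rows of mitochondrial ribosomal proteins (6 of 69). Among the paralogs 1 of 4 had it, which was RPL22L1. A match describes the letters at the annotated start and shows no regulation.

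Counts of cytosolic ribosomal protein genes were lower in both knockdown libraries than in both controls for nearly the whole core set, and no single gene passed the test. Among the 45 core 60S genes tested, 41 had both knockdown values under both control values, and 0 had both above. Among the 31 core 40S genes tested, 29 lay below and 0 above. Over all 17737 genes tested, 19.0% lay below both controls and 18.4% above both. The median log2 fold change was -0.33 for the 60S genes (79.5% of control, quartiles -0.41 and -0.26) and -0.36 for the 40S genes (78.1% of control, quartiles -0.42 and -0.33), beside -0.01 over all genes tested (quartiles -0.22 and 0.23). Without knockdown 2 the 60S median was -0.21, and without knockdown 1 the 40S median was -0.50. No test over the list was made, since the members share the same 4 libraries and were chosen with results of these data known.

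The mean log2 value was lower in knockdown for 73 of 76 core genes, beside 51.0% of all genes tested. The test was limma on log2(value + 1), with Benjamini-Hochberg adjustment over all genes tested and a threshold of 0.05. It called 2 genes in all (0.0113% of those tested) and 0 of the 82 members tested. At an unadjusted p under 0.05, limma placed 20 members lower and 0 higher, 11 in the 60S set and 9 in the 40S set, beside 2.72% of all genes placed lower and 4.33% placed higher. The count models run on the recovered reads also called 0 members. Over all genes edgeR called 10 (0.0564%) and DESeq2 called 67 (0.451% of those with an adjusted p). At an unadjusted p under 0.05, edgeR placed 21 members lower, beside 2.64% of all genes, and DESeq2 placed 26 lower, beside 1.42%. The lowest adjusted p of a core gene was that of RPS12 with each tool, at 0.620 in limma, 0.581 in edgeR and 0.487 in DESeq2. In the authors' deposited table, 0 of the 81 members with an adjusted p passed the threshold, the lowest being 0.419 for RPS12, beside 0.537% of the 12673 genes with one in that table.

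**Figure D1:**
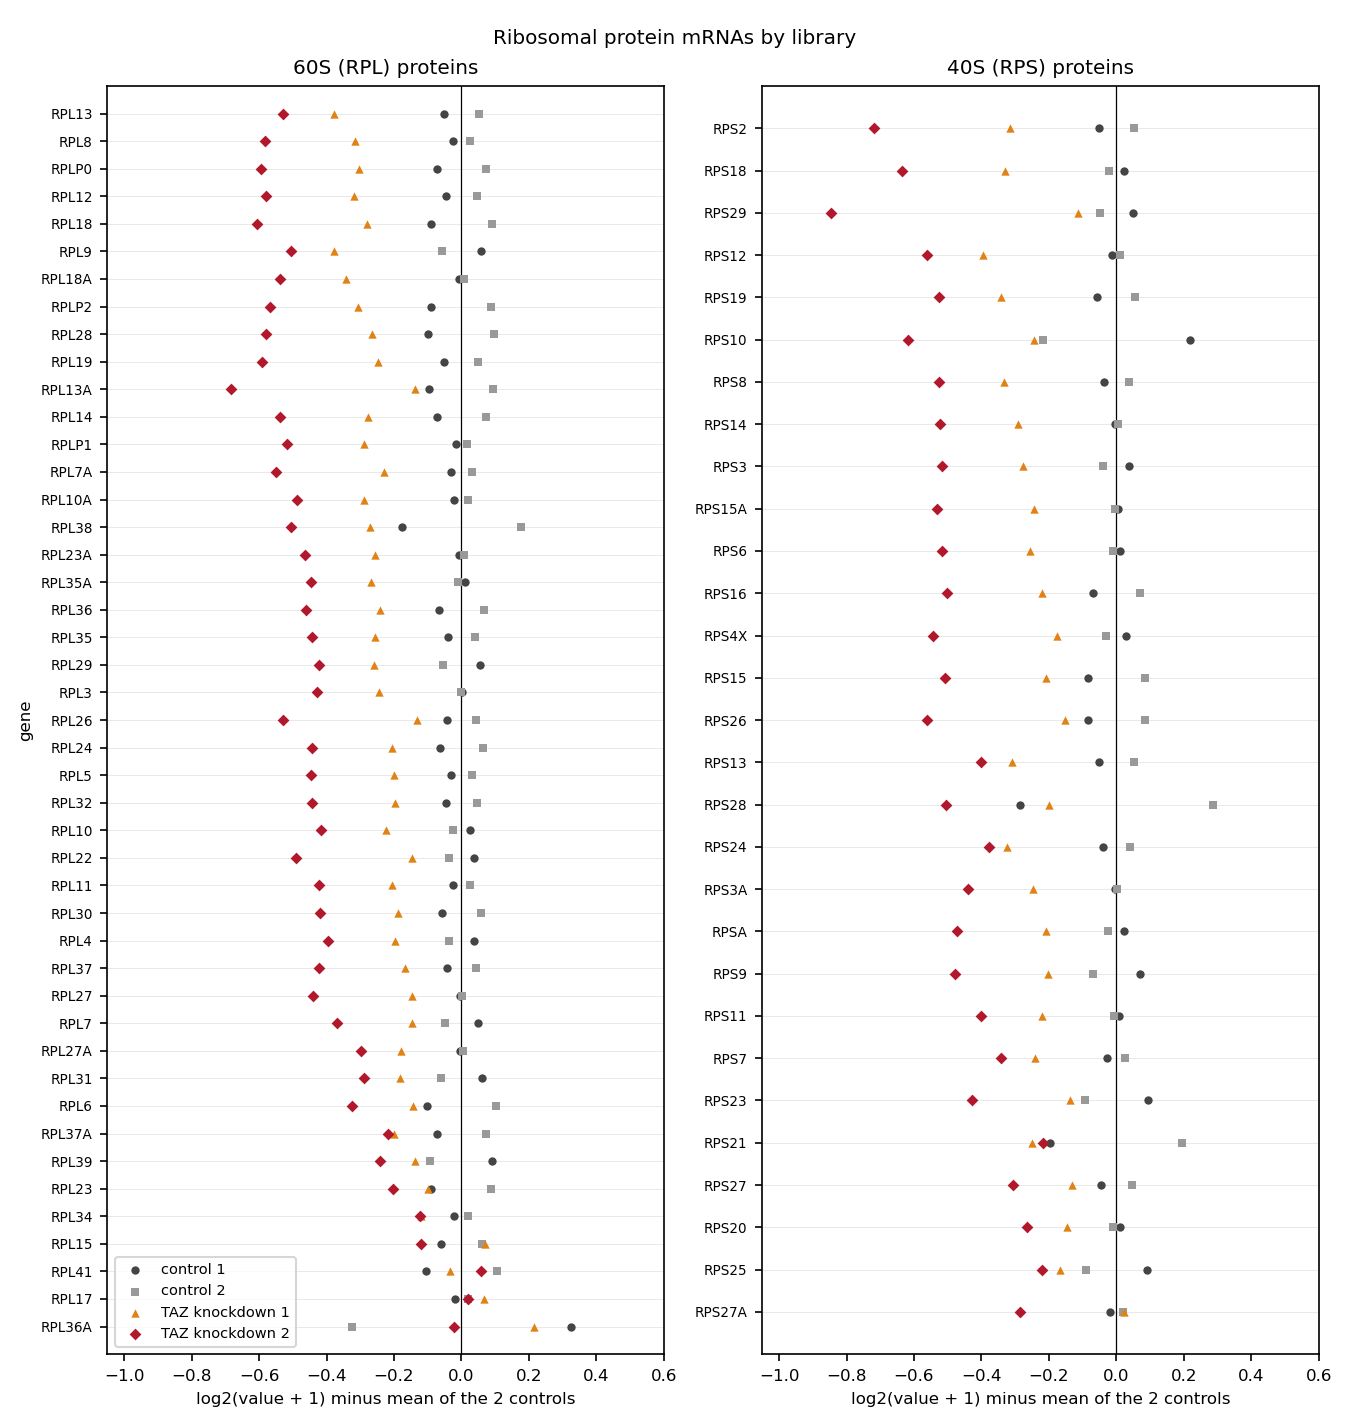
Each row is a core ribosomal protein gene, with a few 40S genes not drawn, and each marker a library, placed on the x axis by log2(value + 1) minus the mean of the 2 control libraries, with 60S genes on the left and 40S genes on the right, ordered by their mean difference. The 2 knockdown libraries lie left of both controls for 41 of 45 60S genes and for most of the 40S genes drawn, and knockdown 2 lies left of knockdown 1 in nearly every row.

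The share of each library's reads that fell in core ribosomal protein genes was taken as a summary that needs no fit of single genes. By library it was 6.06, 5.98, 5.10 and 4.53%, so the groups did not overlap and knockdown 2 was the lowest. The 95% Wilson intervals were 6.04 to 6.07, 5.96 to 5.99, 5.09 to 5.11 and 4.52 to 4.54%, and they cover counting error only, since reads without molecular identifiers are not independent molecules. The control mean was 6.02% ± 0.0573 and the knockdown mean 4.81% ± 0.405 (SD over 2 libraries). With 2 libraries against 2, an exact two-sided permutation test cannot give a p below 0.333, so none was used for single values.

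The 60S genes took 3.70% ± 0.0226 of control reads against 2.98% ± 0.233 of knockdown reads, and the 40S genes 2.32% ± 0.0346 against 1.83% ± 0.173 (SD over 2 libraries). Both subunits stood at nearly the same fraction of control, 80.6% and 79.1%. Reads in 60S genes per read in 40S genes were 1.59, 1.61, 1.61 and 1.64 by library, so knockdown 1 was close to control 2 and knockdown 2 was the highest.

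**Figure D2:**
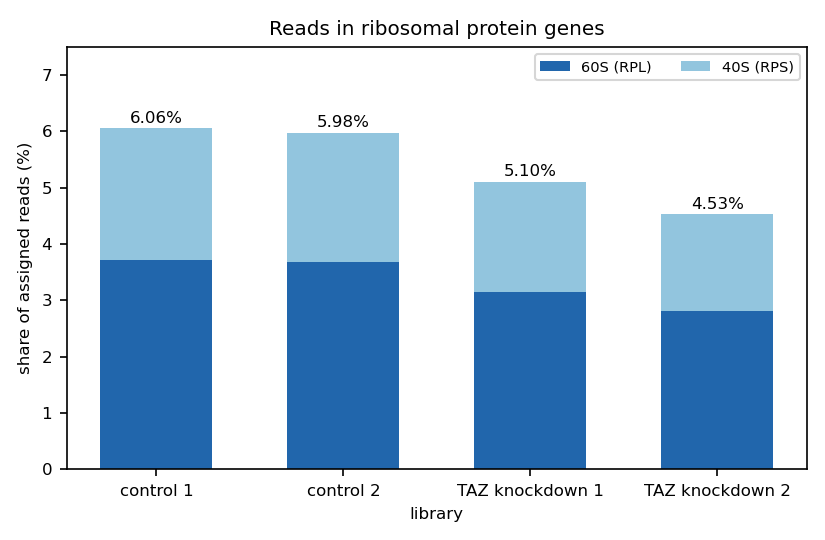
Stacked bars show the percentage of assigned reads that fell in core 60S (dark) and 40S (light) ribosomal protein genes in each of the 4 libraries. The sum was 6.06 and 5.98% for the control pair against 5.10 and 4.53% for the knockdown pair.

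In the 40S subunit, RPS2, which lines the path by which mRNA enters the subunit, had the lowest fold change of the family before any correction for length and GC content (-0.31 with that trend removed). Its normalized counts were 25245, 27106, 21023 and 15885, with both knockdown libraries below both controls and knockdown 2 the lower of the pair (70.5% of control, log2 fold change -0.52 ± 0.21 SE, limma adjusted p = 0.687). RPS18, a protein of the subunit's head, had 17728, 17181, 13879 and 11234 (log2 fold change -0.48 ± 0.19 SE, limma adjusted p = 0.685). RPS12, the core gene with the lowest adjusted p, had 6117, 6220, 4686 and 4177, so its controls were close together and its groups well apart (log2 fold change -0.48 ± 0.16 SE, limma adjusted p = 0.620).

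RPS3, which guards the mRNA entry channel, had 17917, 16987, 14395 and 12191 normalized counts. RPS6, the substrate of S6 kinase and long used as a readout of mTOR signalling, had 15356, 15127, 12756 and 10650. The 2 genes stood at 76.2% and 76.8% of control, with groups that did not overlap. RPSA, the laminin receptor precursor, had 12377, 11972, 10527 and 8771, also without overlap (79.3% of control). The ribosomal genes mutated in Diamond-Blackfan anaemia, a failure of red cell production, are represented by RPS19, with 9222, 9969, 7561 and 6665, and by RPS26, which contacts mRNA upstream of the start codon, with 4380, 4921, 4177 and 3149. RPS26 in knockdown 1 was close to control 1. The 9 Diamond-Blackfan genes listed all lay below both controls, as did 70 of the 76 core genes and 19.0% of all genes tested. Their median log2 fold change was -0.35, the same as that of the core genes together. RPS14, whose loss on one allele marks a form of myelodysplastic syndrome, had 10497, 10555, 8597 and 7321 (75.6% of control).

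The 40S genes with the smallest differences were RPS27A, RPS25 and RPS20. RPS27A, which is made as a fusion with ubiquitin, had 2563, 2634, 2640 and 2133, so that only knockdown 2 was below the controls (log2 fold change -0.13 ± 0.17 SE, limma adjusted p = 0.901). RPS25, needed for initiation on some internal ribosome entry sites, had 5496, 4853, 4601 and 4436, with both knockdown libraries lower but close to control 2. RPS20 had 10101, 9945, 9064 and 8335 and stood at 86.8% of control. RPS27, a zinc-finger protein of the subunit, had 26231, 27985, 24726 and 21923 and stood at 86.0%, also without overlap. Split by place in the subunit, 12 of the 14 head proteins and 17 of the other 17 lay below both controls. The same held for 70 of all 76 core genes and for 19.0% of all genes tested. The median log2 fold change was -0.38 for the head proteins and -0.35 for the others. This order turned once the trend with transcript length and GC content was removed, to -0.27 for the head and -0.35 for the others.

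In the 60S subunit, the stalk proteins that recruit the translation GTPases were all lower. RPLP0, the base of the stalk, had 36413, 40244, 31011 and 25340 normalized counts, with a gap between the groups larger than that between the controls (log2 fold change -0.45 ± 0.21 SE, limma adjusted p = 0.714). RPLP1 had 14437, 14743, 11930 and 10190, and RPLP2 had 9405, 10641, 8096 and 6749. These 2 form the dimers bound to RPLP0. Together with RPL12, which anchors the stalk to the ribosomal RNA, the 4 stalk genes spanned log2 fold changes of -0.45 to -0.40. Their standard errors were 0.17 to 0.21. With the length and GC trend removed the 4 genes spread further, at -0.36 for RPLP0, -0.26 for RPLP1, -0.22 for RPLP2 and -0.39 for RPL12.

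RPL13 and RPL8 had the lowest fold changes of the 60S set, next to RPLP0. RPL13 had 15726, 16925, 12560 and 11312 (log2 fold change -0.45 ± 0.18 SE, limma adjusted p = 0.685). RPL8, which lies at the peptidyl transferase centre, had 25246, 26140, 20631 and 17146 (log2 fold change -0.45 ± 0.20 SE, limma adjusted p = 0.694). In both genes the groups did not overlap and knockdown 2 was the lowest library. RPL18 had 4500, 5096, 3943 and 3149, with the same order of libraries. With the length and GC trend removed, log2 fold changes were -0.35 for RPL13, -0.24 for RPL8 and -0.28 for RPL18. RPL3, also near the peptidyl transferase centre, had 20100, 20073, 16957 and 14916, with controls that were almost equal. RPL4, whose extension lines the exit tunnel, had 28360, 26899, 24072 and 21017 (81.6% of control). RPL10, which joins late in assembly near the P site, had 10343, 9979, 8700 and 7617, and its groups did not overlap.

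RPL5 and RPL11 bring the smallest ribosomal RNA into the large subunit and, when unassembled, bind and inhibit the ubiquitin ligase MDM2. RPL5 had 6961, 7276, 6199 and 5228, and RPL11 had 8780, 9103, 7744 and 6669. They stood at 80.3% and 80.6% of control, and neither overlapped between groups. RPL38, which in mouse is needed for translation of particular Hox mRNAs, had 9554, 12221, 8959 and 7618. Its controls differed by 0.36 on the log2 scale, and knockdown 1 was just below the lower of them. RPL22 had 3437, 3263, 3026 and 2386 and stood at 80.8% of control. RPL39, a small protein of the exit tunnel, had 2657, 2338, 2264 and 2110, with knockdown 1 close to control 2 (87.6% of control).

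The 6 core genes that did not lie below both controls were of different kinds. RPL41, which encodes a very short peptide at the junction of the subunits, had 9637, 11145, 10113 and 10796, with overlapping groups (log2 fold change 0.01 ± 0.18 SE, limma adjusted p = 0.994; negative under upper-quartile scaling). RPL15 had 8128, 8851, 8901 and 7810, again overlapping (log2 fold change -0.02 ± 0.17 SE). RPS28 had 9214, 13696, 9783 and 7923, and its controls differed by 0.57 on the log2 scale, more than its difference between groups (-0.35 ± 0.22 SE). RPS27A is described above. The other two, RPL17 and RPL36A, had few reads. RPL17 had normalized counts of 32.5, 33.4, 34.5 and 33.4, and RPL36A had 89.1, 56.4, 82.4 and 69.8.

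Several rows of the family had few reads. RPL17, RPL36A and RPS10 each have a read-through gene named after them in the GENCODE 29 annotation (RPL17-C18orf32, RPL36A-HNRNPH2 and RPS10-NUDT3). RPS10 had a log2 fold change of -0.43 ± 0.38 SE. RPL21 had 0.929, 1.15, 0 and 0 and was not tested. The sources used here do not say how reads shared with read-through genes, copies or the many processed pseudogenes of the family were counted, so the level of any one gene is uncertain. Leaving out the 5 core genes with a mean under 500 normalized counts, 71 of the remaining 72 had a lower mean in knockdown and 68 lay below both controls. Their log2 fold changes had a median of -0.35 and an SD across genes of 0.10, and the median standard error of a single gene was 0.17. The standard error measures spread between libraries, which these genes share. Its size beside the SD therefore does not show that the genes changed alike.

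The knockdown libraries differed from each other in the same genes. The median difference from the control mean was -0.21 in knockdown 1 and -0.44 in knockdown 2 for the 60S genes, and -0.24 and -0.50 for the 40S genes. Knockdown 2 lay below knockdown 1 for 44 of 45 60S and 29 of 31 40S genes, beside 49.6% of all genes tested. Abundant genes outside the family also differed between the knockdown libraries. For 327 with a mean of at least 5000, medians against the control mean were 0.01 in knockdown 1 and -0.10 in knockdown 2. Control 2 exceeded control 1 by a median of 0.06 in the 60S genes and 0.02 in the 40S genes on the log2 scale. Each knockdown library was lower than each control in the median of both sets, from -0.19 for the 60S genes in knockdown 1 against control 1 to -0.48 for the 40S genes in knockdown 2 against either control. RPS29 differed most between the knockdown libraries among the core genes, with 8628, 8071, 7712 and 4644 normalized counts. In the limma contrast of knockdown 2 with knockdown 1, whose spread rests on the controls alone, 0 members and 0 genes in all (0.0%) passed the threshold, and 1 of 76 core genes (RPS29) had an unadjusted p under 0.05, beside 2.95% of all genes. This contrast compares 1 library with 1 library. WWTR1 was also lower in knockdown 2 than in knockdown 1, with a log2 difference of -0.22, while its controls differed by 0.53. The medians of this difference were -0.22 for the 60S genes and -0.26 for the 40S genes. A relation between WWTR1 and these genes was not tested.

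In the paralog rows no such difference was seen between groups. RPL22L1 had 612, 653, 636 and 531 normalized counts, RPL26L1 had 516, 698, 659 and 602, and RPL7L1, a nuclear protein related to RPL7, had 1355, 1825, 1860 and 1444. RPL39L, best known from the testis in mouse, had 171, 124, 156 and 179, and RPS27L, a relative of RPS27, had 301, 300.2, 267 and 354. Groups overlapped in every one of them. The muscle-specific RPL3L had 0, 2.30, 3.54 and 0 and was barely detected. Of the 6 rows, 0 lay below both controls and 0 above, beside 19.0% and 18.4% of all genes tested. So few rows cannot be told apart from those shares. The mean was higher in knockdown for 5, whereas it was lower for 51.0% of all genes tested. The log2 fold changes of the paralogs spanned -0.12 to 0.23 with a median of 0.06. The directions of single paralogs depended on which library was left out, and their limma adjusted p lay between 0.901 and 0.989.

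The count of a paralog as a percentage of its namesake's was compared across libraries within each pair, since the ratio is not corrected for length. RPL26L1 stood at 4.55% ± 0.782 of RPL26 in control and 5.99% ± 0.779 in knockdown cells, and RPL22L1 at 18.9% ± 1.56 and 21.6% ± 0.866 of RPL22 (SD over 2 libraries). RPL39L stood at 6.43, 5.31, 6.88 and 8.50% of RPL39. In these 3 pairs both knockdown libraries lay above both controls. RPL7L1 at 10.4, 15.1, 16.4 and 14.9% of RPL7 and RPS27L at 1.15, 1.07, 1.08 and 1.62% of RPS27 overlapped. These ratios carry no p under 0.333 in this design, and in each of the 3 pairs that did not overlap the namesake's own count was lower in knockdown.

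**Figure D3:**
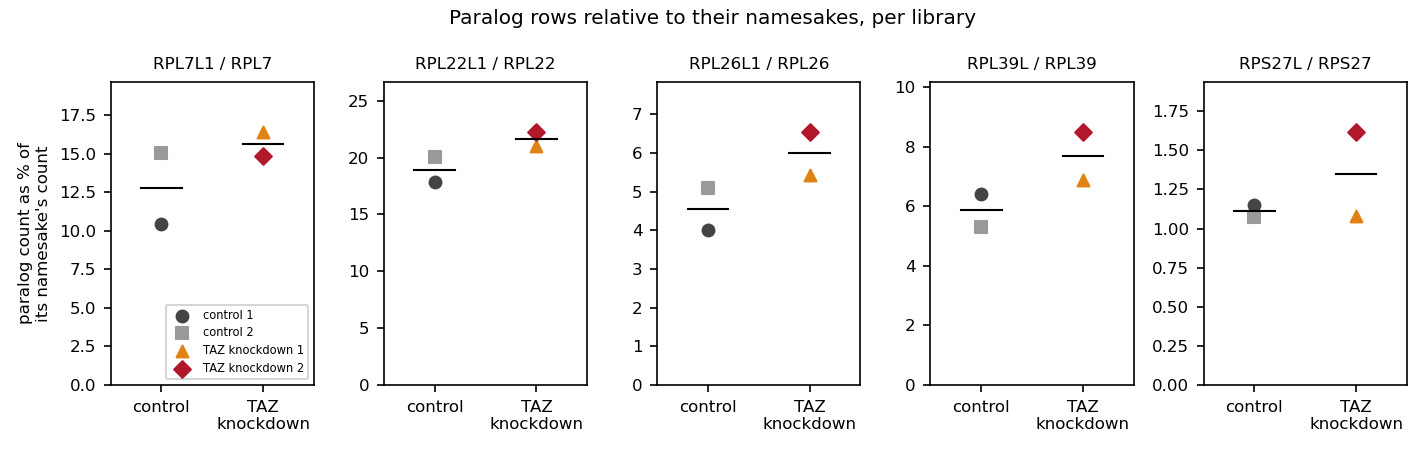
Each panel gives the normalized count of a paralog row as a percentage of that of its namesake, by group, with 1 marker per library and a line at the mean of the 2 libraries. The knockdown libraries lie above both controls for RPL22L1, RPL26L1 and RPL39L and overlap the controls for RPL7L1 and RPS27L.

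Some ribosomal genes lie outside the symbol rule. FAU, which encodes a ribosomal protein fused to a ubiquitin-like protein, had 4648, 5292, 4090 and 3521 normalized counts. RACK1, a scaffold on the 40S head listed in the table as GNB2L1, had 21870, 23444, 19552 and 14871 (log2 fold change -0.41 ± 0.20 SE, limma adjusted p = 0.714). In both genes the knockdown values were under both control values. With these, the list of other TOP mRNAs held chiefly elongation factors, eIF3 subunits and PABPC1. In this list 19 of 20 genes lay below both controls, beside 19.0% of all genes tested. Its median log2 fold change was -0.26, and -0.24 with the length and GC trend removed. EEF1A1, the elongation factor that delivers aminoacyl-tRNA, had 75362, 77559, 69229 and 62207 (log2 fold change -0.22 ± 0.23 SE). HNRNPA1 was the exception, at 443, 422, 426 and 387.

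The mitochondrial ribosomal proteins serve a separate ribosome. Of the 79 rows named MRPL or MRPS that were tested, 37 lay below both controls and 4 above, with a median log2 fold change of -0.14. Without the 3 of these rows whose symbols are those of pseudogenes, a choice made after seeing the data, 36 of 76 lay below and the median was -0.13. With the length and GC trend removed, the median of these 76 was -0.08 and 51 were lower, against 62 before. The 26 ribosome biogenesis genes had 4 below both controls and 2 above, no larger a share than the 19.0% and 18.4% of all genes tested. The mean log2 value was lower in knockdown for 22 of the 26, beside 51.0% of all genes tested. Their median log2 fold change was -0.22, and -0.19 with 23 lower once the length and GC trend was removed. However, control 2 exceeded control 1 by a median of 0.37 in this list. The median differences from the control mean were -0.02 in knockdown 1 and -0.41 in knockdown 2.

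Among 12 genes that act on ribosomal protein mRNAs or respond to unassembled ribosomal proteins, 3 lay below both controls and 2 above, which is near the 19.0% and 18.4% of all genes tested. Those below were RHEB, the GTPase that activates mTOR (log2 fold change -0.35), the S6 kinase gene RPS6KB2 (-0.22) and the translation repressor EIF4EBP1 (-0.28). With the length and GC trend removed these were -0.37, -0.05 and -0.06. MTOR and MDM2 lay above. MYC, a transcription factor that drives ribosome synthesis, had 1636, 2551, 1830 and 1691, with overlapping groups. LARP1, the protein that binds TOP starts, had 6856, 7595, 7225 and 7265, and its fold change was close to 0 (log2 fold change 0.01 ± 0.17 SE). MDM2 had 644, 787, 989 and 1029 and did not pass the test (log2 fold change 0.50 ± 0.17 SE, limma adjusted p = 0.630).

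**Figure D4:**
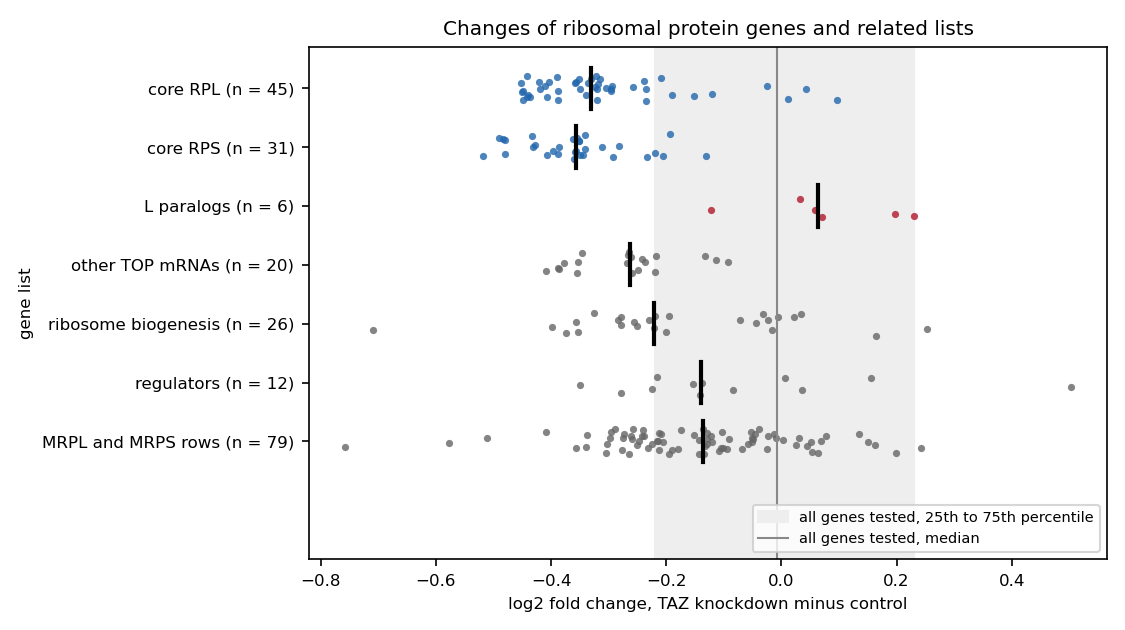
Points are genes, placed by log2 fold change (TAZ knockdown minus control), with a black bar at the median of each list, and the grey band spans the quartiles of all genes tested. The core 60S and 40S lists have medians of -0.33 and -0.36, the other TOP mRNAs -0.26, the MRPL and MRPS rows of mitochondrial ribosomal proteins -0.14 and the 6 paralogs 0.06.

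Differences were also listed by whether a gene had a TOP start. Core genes with an annotated TOP start (45 tested) had a median log2 fold change of -0.35 with 42 below both controls, and those with none in the table (16 tested) had -0.34 with 13 below. Among genes outside the family, the 784 with a TOP start had a median of -0.03 and 24.7% below both controls, and the 11419 without one had 0.00 and 18.3%.

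Ribosomal protein mRNAs are short, and across all other genes the difference between groups varied with length. The median log2 fold change was -0.07 in the shortest of 5 equal bins of transcript length (99 to 1298 nucleotides) and 0.12 in the longest, while the median core ribosomal protein transcript had 698 nucleotides. After the trend with transcript length and GC content was removed from each library, the medians were -0.27 for the 60S genes and -0.31 for the 40S genes, with 72 of 76 core genes lower. The lowest was then RPL9, at -0.47, followed by RPS18 at -0.43 and RPS12 at -0.42. Among other genes described above, RPL10 moved to -0.19, RPS19 to -0.27, RPS20 to -0.13 and RPS25 to -0.12, and RPL15 turned from -0.02 to 0.08. The part of other technical differences between the libraries was not tested. Other genes with a mean of at least 5000 normalized counts, 327 in all, had a median of -0.04. Core genes with a mean of at least 500 had -0.35, but this limit is lower, so the sets are not matched for level. Within the family, core genes of higher GC content had the lower fold changes (Pearson's r = -0.445 and Spearman's rho = -0.499 across 76 genes). Length showed little relation (r = -0.129, rho = -0.0849). Both are descriptions across genes of the same libraries, which are not independent replicates.

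**Figure D5:**
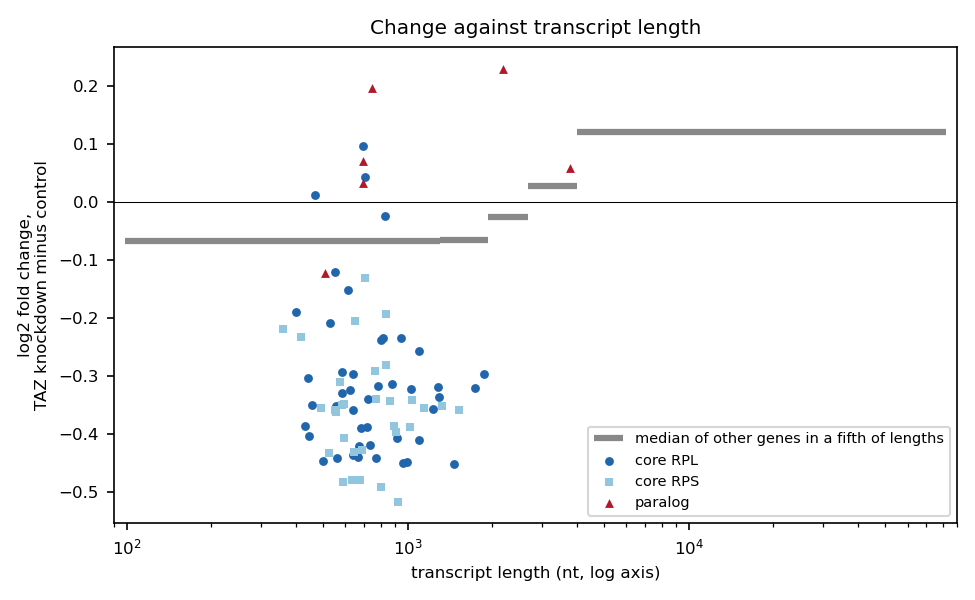
Points are ribosomal protein genes, by transcript length (x axis, nucleotides, log scale) and log2 fold change (y axis), and grey bars give the median of all other genes in each of 5 bins of transcript length. Most core genes lie between -0.52 and -0.12, under the grey bar of -0.07 that covers their lengths.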

How the data were processed

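Polyadenylated RNA of 4 libraries was sequenced from a kit that does not mark strand, per the labels' protocols. STAR, DESeq2 and the hg19 build are named in the submitters' processing notes. The deposited table holds size-factor normalized counts, a signal never below 0, and the authors' own log2 fold changes, standard errors, Wald scores, p-values and adjusted p-values per the file headers. Dividing each column by the worth of 1 read gave whole reads for 100% of values within 0.001 reads. Of 19897 rows, 26 whose symbols had turned into dates were left out (0.153 to 0.191% of reads).

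Genes with a value of at least 1 in at least 2 libraries (17737) were tested on log2(value + 1) with limma 3.58.1 (empirical Bayes with an intensity trend, R 4.3.3), two-sided, without a replicate block. Fold changes on this scale understate those of low genes. Alternatives were edgeR 4.0.16 and DESeq2 1.42.0 on recovered reads, other scalings, pseudocounts of 0.5 and 5, other filters, no trend, a replicate block, each library left out, and removal of a spline (4 degrees of freedom) on transcript length and GC content. Lengths came from GENCODE 29 (GRCh38) for 84.8% of genes tested, as the lower-median basic protein-coding transcript of each gene. No coordinates of the table's own build are given. The fits were checked on simulated counts.

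Members and lists were chosen with earlier results of these data known. Genes were named by a rule: fixed roles, every paralog, and in each subunit the 3 lowest and 3 highest fold changes and 3 highest means. RPL9, RPL12, RPL15, RPL18, RPL21, RPL26, RPS10, RPS12, RPS28, RPS29 and the single genes of other lists were named after their values were seen. Some genes of these lists are counted but not reported singly here.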

Additional observations from a re-analysis of the deposited data

How the results depend on the processing

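The median log2 fold change kept its sign in every alternative run, from -0.349 to -0.307 for the 60S genes and from -0.375 to -0.332 for the 40S genes across scalings, and at -0.267 and -0.308 with the length and GC trend removed. Leaving out 1 library gave -0.444 to -0.207 for the 60S genes, the latter without knockdown 2, and -0.504 to -0.243 for the 40S genes, the former without knockdown 1. By construction, each of these rests on 1 knockdown library. Core members called were 0 in every alternative except 1. When the filter was re-applied to the 3 libraries left, a choice made after seeing the data, 1 member (RPS29) was called without knockdown 1, for a range of 0 to 1.

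The 2 calls over all genes became 10 in edgeR, 67 in DESeq2 and 0 without the intensity trend, and the cause was not tested. With a library left out they became 0 each time on the same gene set, and 286, 479, 314 and 15 with the filter re-applied (range 0 to 479). Each of these fits leaves 1 library in a group, so its spread rests on the other group alone. Why these counts differed was not tested. Same-numbered libraries deviated with a correlation of -0.0388 across genes, so the replicate numbers were not taken to pair them. With the replicate block 7 genes and 0 core members were called.

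Single named members were followed through up to 16 alternatives each, which do not include the runs with the filter re-applied. Of 35 named members, 26 kept their direction in all of these alternatives, and no adjusted p in them fell below 0.543. The others reversed with some library left out. Their log2 fold changes then ranged from -0.253 to 0.0076 for RPL22L1 (positive without knockdown 2), from -0.148 to 0.288 for RPL26L1 (negative without control 1), and from -0.229 to 0.422 for RPL36A (negative without control 2 or knockdown 1). For RPL39L they ranged from -0.03 to 0.425 (negative without control 2), and for RPL3L from -0.861 to 1.32 (negative without control 1 or knockdown 1). For RPL41 they ranged from -0.093 to 0.117 (negative without control 1 or knockdown 2), and for RPL7L1 from -0.156 to 0.274 (negative without control 1 or knockdown 1). For RPS27A they ranged from -0.284 to 0.0228 (positive without knockdown 2), and for RPS27L from -0.169 to 0.236 (negative without knockdown 2). RPL41 also reversed with upper-quartile scaling (-0.00705) and RPL7L1 with the length and GC trend removed (-0.0745). The cause of these reversals was not tested. In RPL3L, at 0 to 3.54 normalized counts, no difference was detectable at this depth.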

Other observations

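RPL36AL, a near-identical relative of RPL36A that the symbol rule leaves out, had normalized counts of 6251, 5847, 5934 and 6155 in control 1, control 2, knockdown 1 and knockdown 2. Its groups overlapped, as did those of RPL36A. Among the ribosome biogenesis genes, EBNA1BP2, which acts in assembly of the large subunit, had the lowest log2 fold change, with 1698, 2143, 1334 and 1019 normalized counts (-0.71 ± 0.19 SE, limma adjusted p = 0.479). Both were singled out after their values were seen. NPM1, the nucleolar chaperone in the list of other TOP mRNAs, had 14538, 18428, 14098 and 11086, with knockdown 1 just below control 1.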
